A study of Mus musculus with 10 samples.

Results

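The genes described are the 39 mouse Hox genes of the HoxA, HoxB, HoxC and HoxD clusters, taken as every entry whose symbol is Hox, a cluster letter and a paralog number. They are 39 of the 24421 gene symbols in the deposited counts, 11 in HoxA, 10 in HoxB, 9 in HoxC and 9 in HoxD. Total RNA was sequenced from inguinal subcutaneous white fat of the left hindlimb of wild-type C57BL/6J mice, taken at day 70 after a dose of 33.3 Gy of electrons to that limb. An ElectronFlash linear accelerator gave the dose either at the ultra-high dose rate called FLASH (4 libraries) or at the conventional dose rate called CONV (3 libraries), and 3 sham libraries are of mice without irradiation. All 10 libraries are given as batch 1. Not given in the sources used here are the age and sex of the mice and whether the libraries of a group are of different animals, so p-values measure only the spread between these samples.

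Hox genes encode homeodomain transcription factors that tell cells of the embryo where they lie along the head-to-tail axis and, in the limb, along its length. Genes of one cluster are switched on in the order in which they lie on the chromosome, so that genes of low paralog number mark anterior and genes of high paralog number mark posterior positions. Adult fat depots and fibroblasts keep much of this pattern from their embryonic origin, and HoxC genes such as Hoxc8 and Hoxc10 are known for their expression in subcutaneous fat.

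The members lie in 4 blocks of the mm10 genome (GENCODE M21 gene models), on chromosome 6 (HoxA), chromosome 11 from 96194316 to 96368256 (HoxB), chromosome 15 from 102921103 to 103036852 (HoxC) and chromosome 2 from 74668310 to 74765142 (HoxD). The blocks of HoxB, HoxC and HoxD span 174 kb, 116 kb and 96.8 kb. Paralog groups 1 to 4 are called anterior here, groups 5 to 8 central and groups 9 to 13 posterior. A transcript of the opposite strand shares 18.0% of the exon length of Hoxa3, 23.3% of Hoxa7, 24.8% of Hoxa11 and 10.7% of Hoxd3. How the counting treated strand is not stated in those sources, so the values of these 4 can include reads of the antisense RNA.

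Promoter sequence was at hand for 22 of the 39 members, as 24 windows from 250 bases before to 50 bases after a RefSeq start (build GRCm38.p6, which is mm10). Hoxc8, Hoxc6, Hoxc10 and Hoxc5, the highest members per kb of exon in sham, were not among them. The 250 bases before the start are shown for 4 members that differ in level, with CG dinucleotides in capitals. Hoxa10 and its neighbour Hoxa9 are among the highest posterior members in this fat, Hoxd4 is the highest HoxD member, and Hoxd13, the gene of the digits, had a count of 0 in all 10 libraries. The Hoxa9 window is chr6:52227371-52227620 on the minus strand, that of Hoxa10 is chr6:52240855-52241104 on the minus strand, that of Hoxd4 is chr2:74721728-74721977 on the plus strand and that of Hoxd13 is chr2:74667975-74668224 on the plus strand.
Hoxa9: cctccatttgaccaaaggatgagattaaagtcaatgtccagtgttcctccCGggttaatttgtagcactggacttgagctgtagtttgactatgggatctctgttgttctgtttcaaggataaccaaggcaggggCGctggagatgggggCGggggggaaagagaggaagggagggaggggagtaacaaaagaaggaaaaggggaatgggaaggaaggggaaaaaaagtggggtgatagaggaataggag
Hoxa10: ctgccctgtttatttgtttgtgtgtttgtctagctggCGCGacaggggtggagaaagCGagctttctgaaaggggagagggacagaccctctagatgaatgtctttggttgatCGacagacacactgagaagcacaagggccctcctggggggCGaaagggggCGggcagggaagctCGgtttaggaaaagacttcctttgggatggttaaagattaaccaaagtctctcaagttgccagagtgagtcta
Hoxd4: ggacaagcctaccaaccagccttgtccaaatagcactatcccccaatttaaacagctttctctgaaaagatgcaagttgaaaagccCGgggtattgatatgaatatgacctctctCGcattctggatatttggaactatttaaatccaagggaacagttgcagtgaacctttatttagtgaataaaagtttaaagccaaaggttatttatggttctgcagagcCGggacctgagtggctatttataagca
Hoxd13: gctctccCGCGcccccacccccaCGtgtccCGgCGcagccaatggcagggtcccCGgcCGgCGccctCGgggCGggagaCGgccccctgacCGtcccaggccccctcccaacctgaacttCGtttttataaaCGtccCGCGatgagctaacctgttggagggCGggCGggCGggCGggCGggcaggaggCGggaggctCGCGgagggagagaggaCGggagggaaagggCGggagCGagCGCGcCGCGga
These 250 bases held 3 CG dinucleotides for Hoxa9, 7 for Hoxa10, 3 for Hoxd4 and 31 for Hoxd13, the silent member. Over the whole windows of 300 bases the Hox genes had a median of 14.5 CG dinucleotides against 7 over all 32851 windows, with 13.5 in windows of tested members and 20 in windows of members too low to test. Single windows departed from these medians, and those shown for Hoxa9 and Hoxd4, with 4 each, had the fewest of the tested members. Hoxa5, a tested member, had 29, and Hoxd11, with a count of 0 in all libraries, had 4 and 25 at different starts. For Hoxa10 the most upstream start is shown, and the whole window of its other start had 21. The composite Hox and Pbx motif TGATNNAT occurred on either strand in 4 Hox windows (16.7%, against 8.85% of all windows), which belong to Hoxa2, Hoxb1, Hoxb8 and Hoxd11. TATAAA occurred in 4 windows (16.7% against 13.6%) and CCAAT in 15 (62.5% against 37.4%), each counted on both strands and without regard to overlap with another motif. Such matches are letters in a window and do not show that a factor binds there.

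Each library held 22.4 M to 36.03 M counts in genes (M, 1000000), and values are CPM, counts scaled to 1000000 per library with TMM factors. At these depths 3 counts, the limit used for a gene not seen, equal 0.0909 to 0.116 CPM, which covers counting error only. FLASH replicate 3 and CONV replicate 2 stand apart from the other 8 libraries. Their 10 B cell and lymph node markers summed to 2229 and 2824 CPM against 3.81 to 20.2 CPM elsewhere, and their 12 adipocyte markers to 7690 and 5952 CPM against 33540 to 45290 CPM. Adipoq, the adipocyte hormone adiponectin, stood at 377 and 268 CPM there and at 1292 to 2102 CPM in the others, so the label of white fat was borne out by its markers in 8 libraries and only weakly in this pair. The counts of members and their medians in each comparison are therefore given with all 10 libraries and with the 8 that leave out the pair (sham n = 3, FLASH n = 3, CONV n = 2). Fold changes of some single genes and of the other gene lists are given with the 8 libraries only. In bulk tissue, fewer cells of a type and less RNA per cell cannot be told apart.

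Of the 39 members, 28 had enough counts to be tested, namely 9 of 11 in HoxA, 8 of 10 in HoxB, 6 of 9 in HoxC and 5 of 9 in HoxD. By position these were 10 of 12 anterior, 11 of 11 central and 7 of 16 posterior members. Hoxb13, Hoxc12, Hoxd1, Hoxd11 and Hoxd13 had a count of 0 in all libraries, which allows up to 0.116 CPM in the shallowest one. Another 6 members, Hoxa11, Hoxa13, Hoxb1, Hoxc11, Hoxc13 and Hoxd12, had a few counts and did not pass the filter with 10 libraries. Hoxc13, the Hox gene of hair and nail, had 8 counts in all, with 1 in sham replicate 3, 3 in FLASH replicate 4, 2 in CONV replicate 1 and 2 in CONV replicate 3, each at or under the limit. Hair follicle and keratinocyte markers summed to 150 CPM in FLASH replicate 4 and to 8.68 to 37.4 CPM elsewhere.

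**Figure D1:**
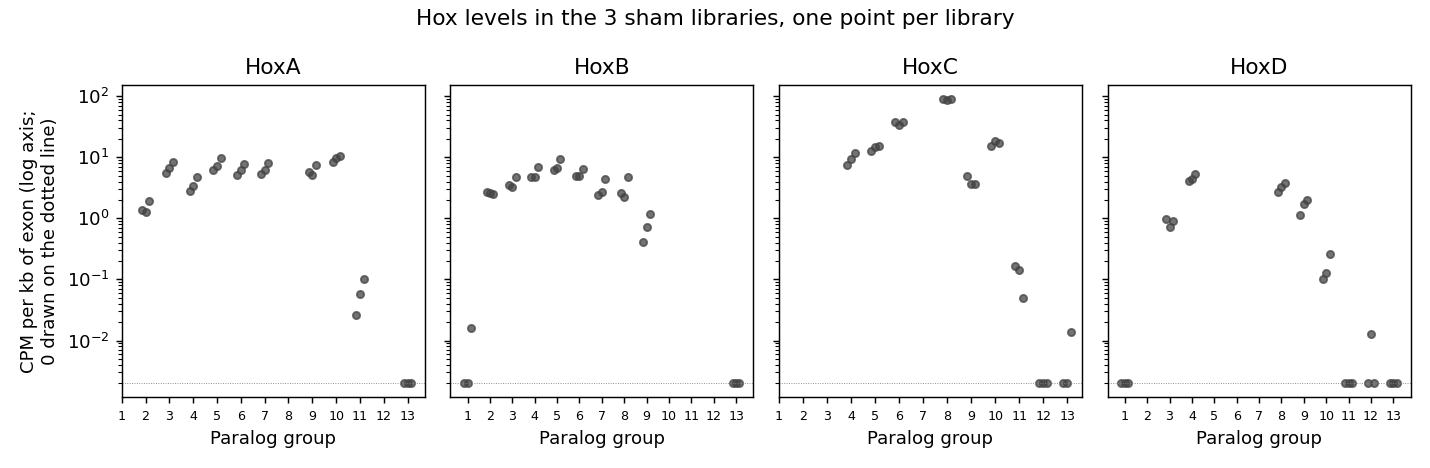
Levels of Hox genes in the 3 sham libraries as CPM per kb of exon on a log axis, by paralog group in each cluster, with 1 point per library and values of 0 on the dotted line. Hoxc8 stands highest at 87.7 CPM per kb, central members of all clusters lie above 1 CPM per kb, and members beyond group 10 lie near or at 0.

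In unirradiated fat the HoxC cluster gave most Hox transcripts. HoxC held 56.8% to 63.9% of all Hox counts in the sham libraries, HoxA 19.3% to 22.9%, HoxB 11.7% to 15.0% and HoxD 4.65% to 5.31%, and Hoxc8 alone held 27.5% to 32.8%. Per kb of exon, the scale on which genes can be compared, Hoxc8 stood at 87.7 ± 1.86 CPM per kb (SD, n = 3). Hoxc6 followed at 36.7 ± 2.23 CPM per kb, Hoxc10 at 17.1 ± 1.58 and Hoxc5 at 14.2 ± 1.31. These 4 did not overlap between libraries, although the lowest Hoxc10 library (15.5 CPM per kb) lay just above the highest Hoxc5 library (15.2), and without the length Hoxc5 stood above Hoxc10. Below them came Hoxc4 (9.51 ± 2.01 CPM per kb), Hoxa10 (9.48 ± 1.07), Hoxa5 (7.68 ± 1.79) and Hoxb5 (7.40 ± 1.81), then Hoxa3 (6.88), Hoxa7 (6.54), Hoxa6 (6.38) and Hoxa9 (6.13), and then Hoxb4 (5.52 ± 1.20), and the ranges of neighbours in this order overlap. The highest HoxD members were Hoxd4 (4.63 ± 0.67 CPM per kb) and Hoxd8 (3.26 ± 0.57).

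Along each cluster the level dropped off at its posterior end. In HoxA, Hoxa10 stood at 9.48 CPM per kb and the next gene, Hoxa11, at 0.062. In HoxC, Hoxc10 stood at 17.1 and Hoxc11 at 0.120 CPM per kb. HoxB ended earlier, with Hoxb8 at 3.18 and Hoxb9 at 0.77 CPM per kb, and so did HoxD, with Hoxd9 at 1.60 and Hoxd10 at 0.162 CPM per kb. At the anterior end Hoxa2 and Hoxb2 stood at 1.53 and 2.60 CPM per kb, while Hoxb1 had 1 count in 1 library and Hoxd1 none.

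FLASH was set against sham to see which differences remained at day 70 after the ultra-high dose rate. In edgeR, 0 of the 28 tested members passed an adjusted p under 0.05, as did 0 of all 15266 genes (0%), with all 10 libraries. Leaving out the pair, 0 of 28 passed in edgeR (0% of 15252 genes). DESeq2 called 0 members with 10 libraries (0% of all genes) and with 8 (0.0262%), and limma voom called 0 with 10 (0%) and with 8 (0%). At an unadjusted p under 0.05, edgeR gave 0 members with 10 libraries (0.648% of all genes) and 3 with 8 (2.52% of all genes), Hoxc5, Hoxc8 and Hoxc10. The fold change was negative in 25 of 28 members (45.9% of all genes) with 10 libraries and in 19 of 28 (51.5%) with 8. Sham and FLASH libraries did not overlap, with FLASH lower, in 4 of 28 members with 10 libraries (2.45% of all genes) and in 4 with 8 (4.64%), in both cases Hoxb7, Hoxc5, Hoxc8 and Hoxc10. The median log2 fold change over the tested members was −0.38 against 0.03 over all genes, and −0.22 against −0.01 with 8 libraries.

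CONV was compared with sham for the same question at the conventional dose rate. With 10 libraries edgeR passed 0 of 28 members (0% of all genes), and with 8 libraries 0 of 28 (0.0393%). Unadjusted p-values under 0.05 were found for 3 members with 10 libraries (5.82% of all genes) and for 6 with 8 (13.3%), which were Hoxa6, Hoxa10, Hoxc5, Hoxc6, Hoxc8 and Hoxc10. DESeq2 with 8 libraries, an alternative chosen after the data were seen, called 3 members (4.35% of all genes), Hoxc5, Hoxc6 and Hoxc8, all lower, and 0 with 10 libraries (0.432%). Limma voom called 0 with 10 libraries (0%) and with 8 (0.0262%). All 28 fold changes were negative with 10 libraries (43.1% of all genes), and 26 of 28 with 8 (48.7%), Hoxa9 and Hoxc11 being the exceptions. CONV libraries lay below every sham library in 10 of 28 members (9.11% of all genes) with 10 libraries and in 11 of 28 (13.2%) with 8. The median log2 fold change was −0.65 against 0.08 over all genes, and −0.38 against 0.01 with 8 libraries. The comparison shares its sham libraries with that of FLASH.

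FLASH and CONV were compared to ask whether the dose rate mattered at equal dose. By edgeR, 0 of 28 members passed with 10 libraries (0% of all genes) and 0 of 28 with 8 (0.0131%). The count at an unadjusted p under 0.05 was 0 with 10 libraries (2.97% of all genes) and 4 with 8 (13.7%), Hoxa10, Hoxc5, Hoxc6 and Hoxc8, each higher in FLASH. DESeq2 with 8 libraries called 1 member (4.37% of all genes), Hoxc6, and 0 with 10 (0.262%), while limma voom called 0 with 10 (0%) and with 8 (0.0197%). The fold change was positive, with FLASH higher, in 21 of 28 members with 10 libraries (44.2% of all genes) and in 18 with 8 (46.9%). FLASH lay above CONV without overlap in 1 member with 10 libraries (1.13% of all genes), Hoxd3, and in 8 with 8 (12.8%), and below it in 1 with 8 (13.3%), Hoxc10. The median log2 fold change was 0.35 against −0.04 over all genes, and 0.26 against −0.02 with 8 libraries. In edgeR with the 8 libraries, all 3 sham libraries lay above all 3 FLASH libraries and these above both CONV libraries in 2 of 28 members, Hoxc5 and Hoxc8, and in 0.308% of all genes.

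**Figure D2:**
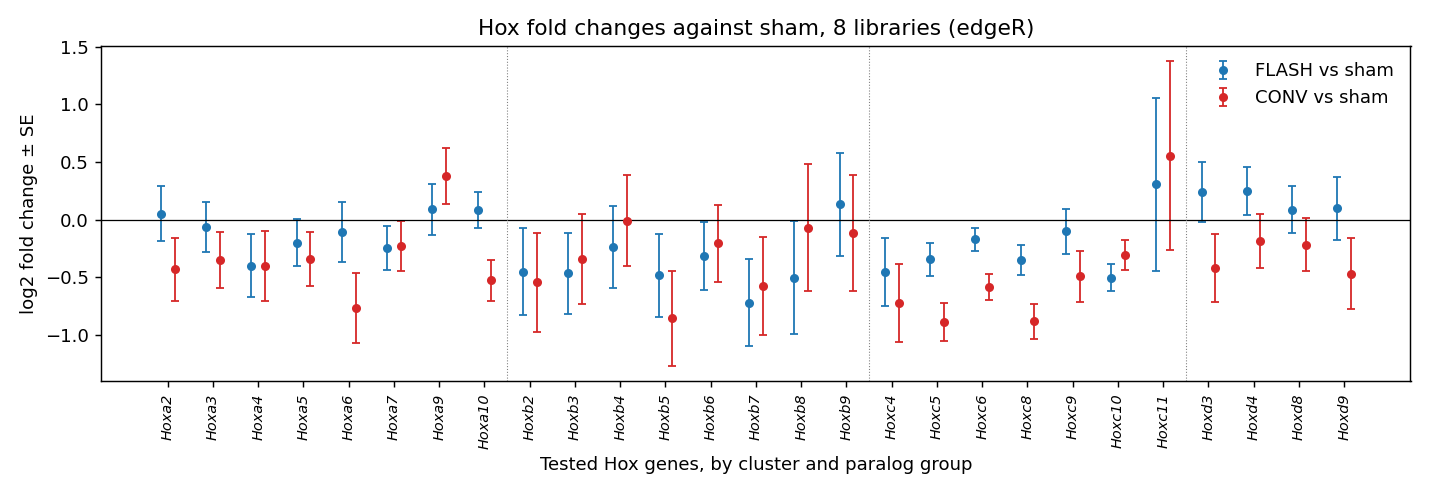
Log2 fold changes against sham of 27 of the 28 members tested with 8 libraries (edgeR), by cluster and paralog group, with FLASH in blue, CONV in red and bars of 1 standard error. HoxC members from Hoxc4 to Hoxc10 lie below 0 in both comparisons, Hoxc8 at −0.35 and −0.88, while the 4 HoxD members lie above 0 for FLASH and below 0 for CONV.

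The 3 members with the smallest p between CONV and sham with 8 libraries were HoxC genes. Hoxc8, which patterns the trunk and restrains brown fat formation, had 167, 160.0 and 165 CPM in sham, 135, 138, 31.2 and 115 CPM in FLASH and 102, 18.9 and 77.7 CPM in CONV, in the order of the replicate numbers, as for all genes that follow. Every irradiated library lay below every sham library, the lymphocyte-rich pair lay lowest, and CONV lay below FLASH in the remaining libraries. The log2 fold change in edgeR was −0.65 ± 0.59 (SE, adjusted p = 0.998) for FLASH and −1.31 ± 0.64 (adjusted p = 0.607) for CONV with 10 libraries, and −0.35 ± 0.13 (adjusted p = 1.00) and −0.88 ± 0.15 (adjusted p = 0.0924) with 8. DESeq2 with 8 libraries gave −0.87 ± 0.17 for CONV (adjusted p = 9.97e-05) and −0.35 ± 0.16 for FLASH (adjusted p = 1.00). FLASH against CONV was 0.53 ± 0.15 with 8 libraries in edgeR (adjusted p = 0.193) and 0.52 ± 0.17 in DESeq2 (adjusted p = 0.0561). With CONV replicate 1 left out as well, edgeR gave −1.10 for CONV against sham and 0.75 for FLASH against CONV. With CONV replicate 3 left out instead, CONV against sham was smaller, at −0.69. Over the fits that leave out 1 of the 8 libraries, FLASH against CONV went down to 0.34. A fit without either CONV replicate leaves 1 CONV library, so no p-value is given for it.

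**Figure D3:**
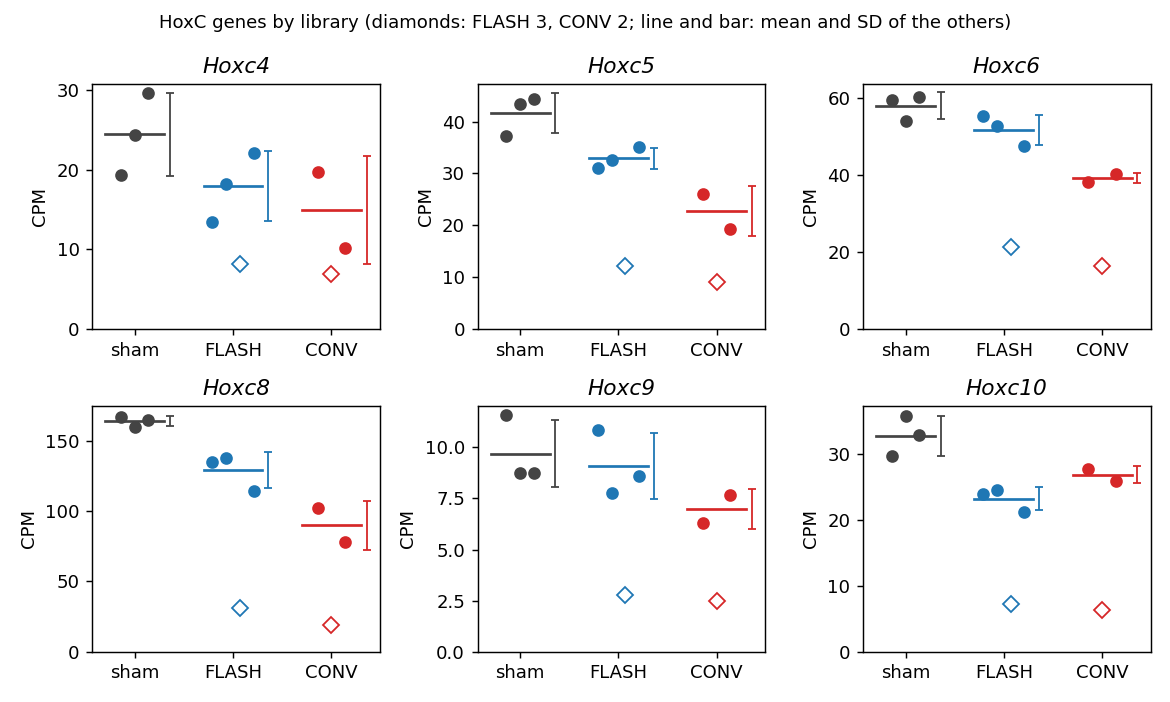
CPM of 6 HoxC genes in each library, with filled points for the 8 libraries, open diamonds for FLASH replicate 3 and CONV replicate 2, and lines and bars for the mean and SD without that pair. Hoxc8 stands at 160.0 to 167 CPM in sham, 115 to 138 CPM in FLASH and 77.7 and 102 CPM in CONV, and the diamonds lie lowest in all 6 panels.

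Hoxc5, a gene of neck and upper trunk level, had the same order of groups. It stood at 37.2, 43.3 and 44.4 CPM in sham, 31.1, 32.6, 12.1 and 35.1 CPM in FLASH and 26.1, 9.08 and 19.4 CPM in CONV, with no overlap between sham and either irradiated group. By edgeR with 8 libraries the log2 fold change was −0.35 ± 0.14 for FLASH (adjusted p = 1.00) and −0.89 ± 0.17 for CONV (adjusted p = 0.0976), and the CONV call of DESeq2 had an adjusted p of 0.000487. Leaving out CONV replicate 1 in addition gave −1.13 in edgeR, and leaving out CONV replicate 3 instead gave −0.68, each with 1 CONV library left. Hoxc6, another gene of the upper trunk, stood at 59.7, 54.0 and 60.4 CPM in sham, 55.3, 52.7, 21.4 and 47.6 CPM in FLASH and 38.3, 16.5 and 40.2 CPM in CONV. Its FLASH libraries reached into the sham range, and its CONV libraries lay below all sham libraries and, the pair aside, below all FLASH libraries. The log2 fold change with 8 libraries was −0.17 ± 0.10 for FLASH (adjusted p = 1.00) and −0.58 ± 0.11 for CONV (adjusted p = 0.102) in edgeR, while DESeq2 gave adjusted p-values of 0.00126 for CONV against sham and 0.0490 for FLASH against CONV. With 10 libraries the edgeR values for CONV were −1.19 ± 0.45 for Hoxc5 and −0.87 ± 0.41 for Hoxc6 (adjusted p = 0.607 for both).

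Hoxc10, the posterior HoxC gene known to repress browning of subcutaneous fat, stood apart from this order. Its values were 29.6, 35.7 and 32.8 CPM in sham, 23.9, 24.5, 7.18 and 21.2 CPM in FLASH and 27.7, 6.37 and 25.9 CPM in CONV. Leaving out the pair, FLASH lay lowest, CONV between, and none of the 3 groups overlapped. The FLASH fold change was −0.50 ± 0.12 in edgeR with 8 libraries (adjusted p = 1.00, the smallest p of the members in this comparison), and that of CONV was −0.31 ± 0.13 (adjusted p = 0.375). With 10 libraries these were −0.77 ± 0.53 and −0.71 ± 0.57 (adjusted p = 0.998 and 0.626).

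Hoxc4 and Hoxc9 varied more between libraries of a group. Hoxc4, the most anterior gene of the cluster, stood at 19.3, 24.3 and 29.7 CPM in sham, 13.4, 18.3, 8.18 and 22.2 CPM in FLASH and 19.8, 6.90 and 10.2 CPM in CONV. Hoxc9, which sets thoracic motor neuron identity, stood at 11.6, 8.72 and 8.74 CPM in sham, 10.9, 7.76, 2.78 and 8.59 CPM in FLASH and 6.28, 2.48 and 7.69 CPM in CONV. Both overlapped between sham and FLASH, and only Hoxc9 had all CONV libraries below sham. The edgeR fold changes with 8 libraries were −0.45 ± 0.30 (FLASH) and −0.72 ± 0.34 (CONV) for Hoxc4 and −0.10 ± 0.19 and −0.49 ± 0.22 for Hoxc9, with adjusted p-values of 0.391 or more.

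In the HoxA cluster Hoxa6 and Hoxa10 had the most negative CONV fold changes with 8 libraries. Hoxa10, which patterns the lumbar region and the uterus, stood at 26.2, 30.3 and 32.8 CPM in sham, 34.1, 30.0, 6.52 and 31.4 CPM in FLASH and 24.5, 4.63 and 17.4 CPM in CONV. FLASH libraries other than replicate 3 lay in or above the sham range, and the CONV libraries lay below it. The log2 fold change in edgeR with 8 libraries was 0.09 ± 0.16 for FLASH and −0.53 ± 0.18 for CONV (adjusted p = 1.00 and 0.264), and 0.61 ± 0.18 for FLASH against CONV (adjusted p = 0.206). When CONV replicate 1 was left out as well, which leaves 1 CONV library, CONV was at −0.81 against sham. FLASH against CONV was then at 0.89. The library left out was the higher CONV library outside the pair, at 24.5 CPM against 17.4 CPM. With 10 libraries FLASH was at −0.22 ± 0.61 and CONV at −0.94 ± 0.66 (adjusted p = 0.998 and 0.609).

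Hoxa6, a central gene, stood at 4.50, 5.34 and 6.89 CPM in sham, 5.85, 3.88, 3.40 and 5.87 CPM in FLASH and 3.91, 2.65 and 2.72 CPM in CONV. CONV lay below sham in all 3 libraries, and FLASH overlapped both. Its CONV fold change was −0.85 ± 0.33 with 10 libraries and −0.76 ± 0.30 with 8 (edgeR adjusted p = 0.607 and 0.333). Hoxa5, a lung and trunk patterning gene that is also expressed in fat, stood at 11.6, 13.5 and 18.1 CPM in sham, 14.02, 10.2, 9.96 and 13.6 CPM in FLASH and 12.5, 4.39 and 10.5 CPM in CONV. These groups overlapped, and its fold changes with 8 libraries were −0.20 ± 0.21 and −0.34 ± 0.23 (adjusted p = 1.00 and 0.569). In the HoxA cluster, Hoxa2, Hoxa3, Hoxa4, Hoxa7 and Hoxa9 had log2 fold changes between −0.40 and 0.09 for FLASH and between −0.43 and 0.38 for CONV with 8 libraries.

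HoxB genes varied widely between libraries of the same group. Hoxb5, a central gene, stood at 11.7, 12.4 and 17.9 CPM in sham, 12.8, 5.16, 5.44 and 12.2 CPM in FLASH and 6.08, 3.89 and 9.64 CPM in CONV. Hoxb7 stood at 3.13, 3.42 and 5.72 CPM in sham, 2.79, 1.68, 1.39 and 3.00 CPM in FLASH and 1.86, 1.54 and 3.72 CPM in CONV. Hoxb5 did not overlap between sham and CONV and Hoxb7 did not overlap between sham and FLASH. Their edgeR fold changes with 8 libraries were −0.85 ± 0.41 for Hoxb5 in CONV (adjusted p = 0.424) and −0.72 ± 0.38 for Hoxb7 in FLASH (adjusted p = 1.00), and with 10 libraries −1.10 ± 0.47 and −0.88 ± 0.44 (adjusted p = 0.607 and 0.998).

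Hoxb4, a gene known from blood stem cells, stood at 12.4, 12.4 and 17.7 CPM in sham, 13.1, 6.81, 10.4 and 16.2 CPM in FLASH and 9.86, 10.1 and 18.7 CPM in CONV. Hoxb3, its anterior neighbour, stood at 12.4, 11.3 and 16.5 CPM in sham, 10.9, 4.79, 7.33 and 13.4 CPM in FLASH and 9.45, 7.00 and 11.9 CPM in CONV. Values of Hoxb8, which is also active in myeloid cells, were 6.96, 5.83 and 12.3 CPM in sham, 6.21, 2.78, 2.86 and 8.77 CPM in FLASH and 4.84, 2.04 and 11.4 CPM in CONV. In all 3 genes the groups overlapped, CONV replicate 3 stood within or above the sham range, and FLASH replicate 2 was the lowest FLASH library. The log2 fold changes with 8 libraries for FLASH and CONV were −0.24 ± 0.36 and −0.01 ± 0.40 for Hoxb4, −0.47 ± 0.35 and −0.34 ± 0.39 for Hoxb3 and −0.50 ± 0.49 and −0.07 ± 0.55 for Hoxb8, none past the threshold in edgeR. The other tested HoxB members, Hoxb2, Hoxb6 and Hoxb9, had values between −0.45 and 0.13 for FLASH and between −0.54 and −0.12 for CONV. The summed HoxB level was 61.0 to 89.99 CPM in sham, 61.2 and 70.8 CPM in FLASH replicates 1 and 4 and 72.9 CPM in CONV replicate 3, against 30.4 CPM in FLASH replicate 2 and 43.0 CPM in CONV replicate 1. Skeletal muscle markers were raised in the last 2 libraries, with 12 markers summing to 412 and 2749 CPM against 1.88 to 54.96 CPM in 7 others, but they summed to 809 CPM also in sham replicate 3, which had the highest HoxB level. The part of this muscle RNA in the HoxB values was not tested.

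The 4 HoxD genes tested with 8 libraries had small positive fold changes for FLASH and negative ones for CONV. Hoxd4, an anterior gene of the hindbrain and neck, stood at 10.5, 11.3 and 13.8 CPM in sham, 11.3, 17.2, 10.5 and 14.03 CPM in FLASH and 12.0, 7.84 and 8.97 CPM in CONV. Hoxd8 stood at 7.35, 9.02 and 10.5 CPM in sham, 7.84, 11.8, 6.52 and 8.99 CPM in FLASH and 7.97, 5.33 and 7.58 CPM in CONV. Hoxd3, the neighbour of Hoxd4 that shares exon with an antisense RNA, stood at 3.16, 2.31 and 2.96 CPM in sham, 3.00, 4.39, 2.78 and 2.66 CPM in FLASH and 2.08, 2.45 and 2.17 CPM in CONV. Sham and FLASH overlapped in each of these genes, and Hoxd3 alone had every FLASH library above every CONV library. Its FLASH against CONV fold change was 0.52 ± 0.29 with 10 libraries and 0.66 ± 0.30 with 8 (edgeR adjusted p = 0.999 and 0.381). The median log2 fold change of the tested HoxD members was 0.16 for FLASH and −0.30 for CONV with 10 libraries, against −0.62 and −0.93 for HoxC. With 8 libraries it was 0.17 and −0.32 for HoxD, against −0.35 and −0.58 for HoxC, so the clusters lay closer together. No test of the difference between clusters was run.

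Hoxd9, a gene of the posterior trunk and hindlimb, was highest in the lymphocyte-rich pair. It stood at 2.43, 3.65 and 4.20 CPM in sham, 3.15, 3.84, 6.91 and 4.05 CPM in FLASH and 2.95, 4.59 and 2.06 CPM in CONV. FLASH replicate 3 and CONV replicate 2, at 6.91 and 4.59 CPM, lay above all other libraries. Hoxd10, at a low level, had 16 and 11 counts in these libraries (0.618 and 0.369 CPM) against 3 to 14 counts in the others, and CONV replicate 2 lay below sham replicate 3 (0.471 CPM). The fold change of Hoxd9 for FLASH was 0.39 ± 0.40 with 10 libraries and 0.10 ± 0.27 with 8 (edgeR adjusted p = 0.998 and 1.00).

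**Figure D4:**
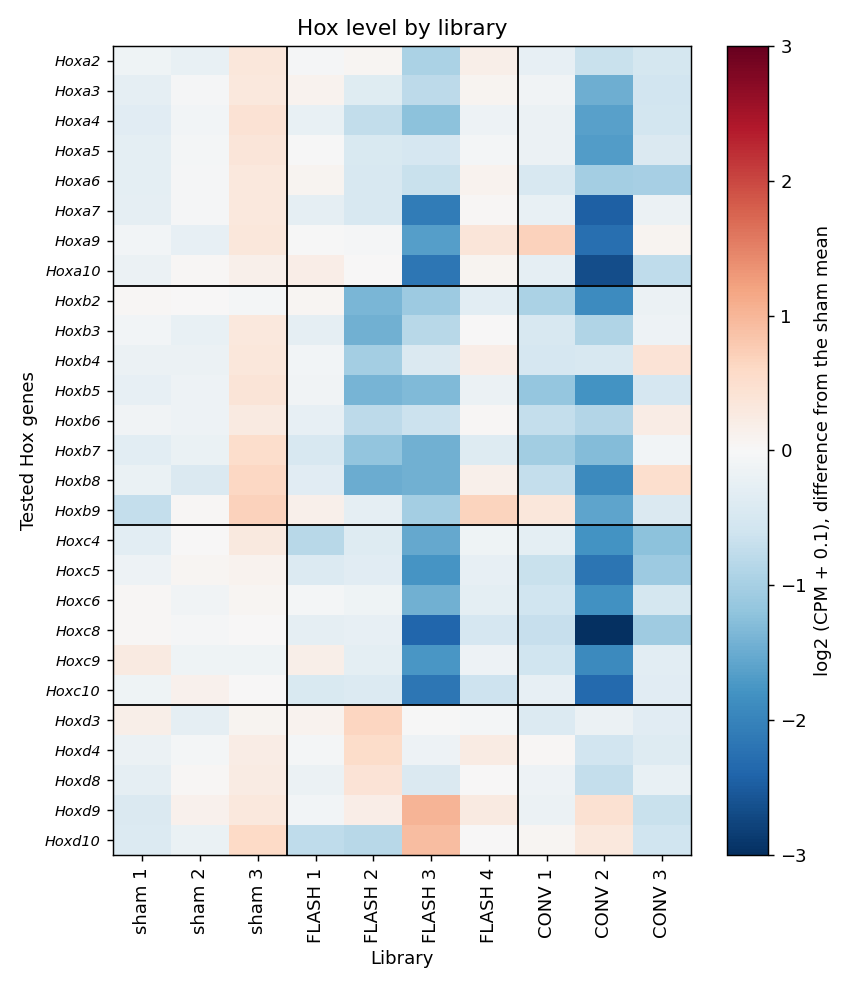
Difference of log2 (CPM + 0.1) from the sham mean for 27 of the 28 members tested with 10 libraries, 1 row per gene in the order of cluster and paralog number and 1 column per library, blue below and red above the sham mean. FLASH replicate 3 and CONV replicate 2 are blue over HoxA, HoxB and HoxC, down to −3.11 for Hoxc8, and mixed over HoxD, with Hoxd9 red at 1.03 and 0.45 and Hoxd8 blue at −0.43 and −0.72.

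Across the clusters, the pair of lymphocyte-rich libraries lay below the sham mean in every tested member of HoxA, HoxB and HoxC, while the tested HoxD members differed in direction. On the scale of log2 (CPM + 0.1), the median difference from the sham mean was −1.22 and −1.67 over HoxA in FLASH replicate 3 and CONV replicate 2, −1.05 and −1.45 over HoxB, −1.76 and −2.05 over HoxC and −0.00 and −0.18 over HoxD. Within HoxD, Hoxd9 lay at 1.03 and 0.45 in these libraries and Hoxd8 at −0.43 and −0.72, its lowest values of all 10 libraries. The HoxD genes summed to 27.3 CPM in FLASH replicate 3 and to 20.6 CPM in CONV replicate 2, the lowest of all libraries, against 23.6 to 31.9 CPM in sham. Outside the pair the irradiated libraries had HoxC medians of −0.26 to −0.35 in FLASH and of −0.60 and −0.80 in CONV, while sham libraries lay between −0.06 and 0.03. In the other clusters both irradiated groups reached into the sham range. HoxA medians were −0.47 to 0.08 in FLASH and −0.21 and −0.52 in CONV, against −0.27 to 0.32 in sham. HoxB medians were −1.28 to 0.03, −0.71 and −0.11, against −0.18 to 0.36. HoxD medians were −0.08 to 0.41, −0.15 and −0.39, against −0.26 to 0.24. Sham values lie around 0 because they are differences from their own mean. All Hox genes together summed to 508 to 600.2 CPM in sham, 437 to 472 CPM in FLASH and 401 and 361 CPM in CONV without the pair, and to 191 and 142 CPM in the pair. This order of groups rested in part on Hoxc8. Without Hoxc8 the sums were 341 to 435 CPM in sham, 300 to 358 CPM in FLASH and 299 and 283 CPM in CONV outside the pair. Sham and FLASH then overlapped. HoxD made up 14.3% and 14.5% of Hox counts in the pair and 4.65% to 8.53% in the other 8 libraries.

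**Figure D5:**
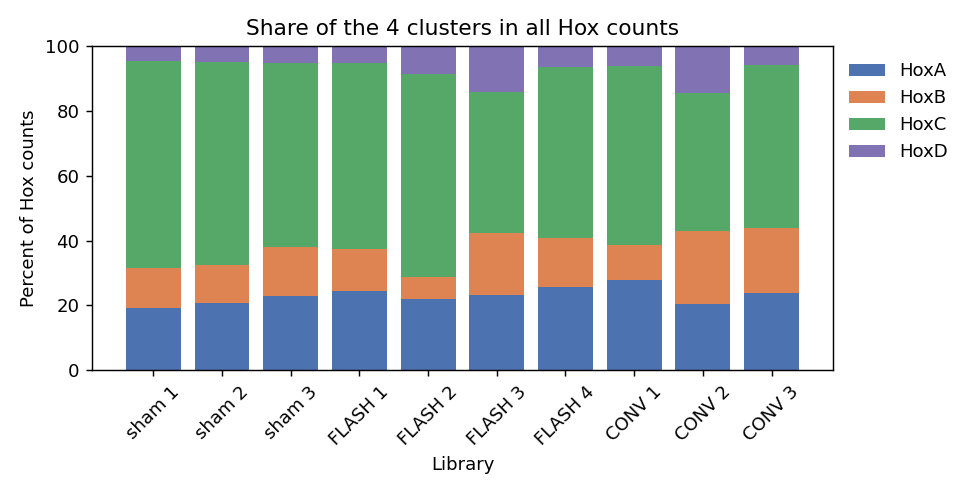
Share of each cluster in all Hox counts of a library, in percent, as stacked bars with HoxA at the bottom and HoxD on top. HoxC holds 50.3% to 63.9% in 8 libraries and 43.3% and 42.6% in FLASH replicate 3 and CONV replicate 2, where HoxD reaches 14.3% and 14.5%.

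The content of other cells moved with these values in the pair. As the mean log2 difference from sham, adipocyte markers lay at −2.33 and −2.63 there and adipose progenitor and fibroblast markers at −1.41 and −1.24, while B cell markers lay at 7.73 and 8.20. Of the 12 progenitor and fibroblast markers, 9 lay below the sham range in each library of the pair. Dpp4 and Cd55 lay above that range in both, and Ly6a in CONV replicate 2. Outside the pair, the CONV libraries with lower Hoxc8 had adipocyte marker sums of 34670 and 37990 CPM, inside the sham range of 33700 to 39790 CPM. Single adipocyte markers moved apart there, and 3 of the 12, Plin1, Plin4 and Lep, lay below every sham library in both, while Cfd lay above. Plin1, which coats the lipid droplet, stood at 1326 and 1380 CPM against 1716 to 1833 CPM in sham, and Lep, the hormone leptin, at 437 and 323 CPM against 1141 to 2035 CPM. The part of these cell type markers in the Hox values, in the pair and outside it, was not tested. The 12 progenitor and fibroblast markers summed to 10160 CPM in CONV replicate 1, above the sham range of 6246 to 9795 CPM, and to 4320 CPM in CONV replicate 3, below it, and Hoxc8 lay below sham in both. Macrophage markers summed to 2288 CPM in CONV replicate 1 and to 779 CPM in CONV replicate 3, against 751 to 925 CPM in sham.

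Other genes of the Hox system were taken from lists, and in edgeR none of their tested members passed in any of the 3 comparisons with 10 or with 8 libraries. The Pbx, Meis and Pknox cofactors, which bind DNA together with Hox proteins, had 8 of 9 members tested, with 4 negative and 4 positive fold changes in each comparison. Their median log2 fold change with 8 libraries was 0.02 for FLASH and −0.01 for CONV. Polycomb and trithorax genes, which keep Hox clusters silent or active, had medians of 0.02 and −0.02 over 20 members. Genes of retinoid, Cdx and Gdf11 signalling, which set Hox expression in the embryo, had medians of −0.08 and −0.33 over 9 tested members, 8 of them negative for CONV. Of 17 non-coding RNAs of the clusters, 5 were tested, 3 negative for FLASH and 4 for CONV, with medians of −0.10 and −0.24. Genes that flank the clusters had medians of −0.11 and 0.24 over 7 tested members.

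Genes that mark position outside the Hox system are given beside the Hox genes, and where the tissue came from was not tested with them. Tbx15, a T-box gene of the limb and trunk mesenchyme and of fat, stood at 31.2, 31.4 and 38.4 CPM in sham, 21.8, 35.5, 15.6 and 30.5 CPM in FLASH and 39.7, 13.8 and 25.1 CPM in CONV. Tbx5, the T-box gene of the forelimb and heart, stood at 6.62, 7.42 and 8.47 CPM in sham, 5.21, 7.32, 1.35 and 4.79 CPM in FLASH and 4.68, 0.77 and 5.04 CPM in CONV. Both were lowest in the lymphocyte-rich pair. Pitx1, the hindlimb gene, was at 0.273 CPM or less in every library, with at most 9 counts. The log2 fold changes of Tbx5 in edgeR with 8 libraries were −0.39 ± 0.21 for FLASH and −0.65 ± 0.24 for CONV (adjusted p = 1.00 and 0.301), and those of Tbx15 were −0.21 ± 0.23 and −0.07 ± 0.26 (adjusted p = 1.00 and 0.927). Over the list of 24 positional factors, 20 were tested, 13 with a negative fold change for FLASH and 13 for CONV with 8 libraries, and the medians were −0.22 and −0.38.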

How the data were processed

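The counts deposited by the authors are whole numbers per gene symbol in 10 libraries, without normalization. The submitters' processing notes name kallisto 0.5.0 and build mm10, while the files carry 5 entries of unassigned reads as a read counter writes them, so the step that made the counts is not certain. Not given in the sources used here are the aligner, the strand setting and the annotation. The unassigned entries, 52.0% to 69.6% of each library, were left out. Groups came from the sample titles.

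Counts were fitted in R 4.3.3 with edgeR 4.0.16 (filterByExpr, TMM, robust quasi-likelihood test, 1 mean per group over all 10 libraries), two-sided, with Benjamini-Hochberg adjustment over all 15266 genes tested (15252 with 8 libraries, where Hoxc11 passed the filter and Hoxd10 did not). The scripts were tested on simulated data. DESeq2 1.42.0 and limma 3.58.1 were alternatives. Differences by library are on log2 (CPM + 0.1). CPM per kb used the union of GENCODE M21 basic exons. Promoter windows came from RefSeq.

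The members, the gene lists and the pair left out were chosen with earlier results of these data known. Values in every library are given for the 2 highest members of each cluster in sham, the 3 tested members of smallest p in each direction of each comparison, members past the threshold, any with a far-off library, and Hoxa5, Hoxc8, Hoxc9, Hoxc10 and Hoxc13, 19 in all. Some values are not reported here.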

Additional observations from a re-analysis of the deposited data

Results flagged for a closer look

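Hoxa10 in FLASH replicate 3 stood at 6.52 CPM, far below the other 3 FLASH libraries, which lay between 30.0 and 34.1 CPM. Its gap to the nearest library was 0.850 of the range of the 4 FLASH libraries, above the 95% critical value of Dixon's test for 4 values. FLASH replicate 3 is one of the lymphocyte-rich libraries. Chance alone sets apart about 1 in 20 such groups, and the rule was applied over the members rather than to Hoxa10 alone.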

How the results depend on the processing

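In FLASH against sham, the count of Hox genes past the threshold stayed at 0 under each scaling, filter, test (edgeR, DESeq2 and limma voom) and left-out library tried. DESeq2 with 8 libraries, an alternative added after the data were seen, gave 3 members for CONV against sham (4.35% of all genes). For FLASH against CONV it gave 1 member (4.37% of all genes). In edgeR the counts were 0 in these comparisons without any 1 of all 10 libraries. With 8 libraries they were 0 also without any 1 sham or FLASH library. Leaving out CONV replicate 1 or CONV replicate 3 as well leaves 1 CONV library, so only fold changes are given for those fits. The median log2 fold change kept its sign throughout. Leaving out 1 of 10 libraries it ranged from −0.47 to −0.24 (FLASH against sham), −0.88 to −0.39 (CONV against sham) and 0.06 to 0.49 (FLASH against CONV), and leaving out 1 of 8 from −0.31 to −0.10, −0.49 to −0.25 and 0.08 to 0.29.

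With 8 libraries, FLASH against sham turned to −0.0021 for Hoxd3 without FLASH replicate 2 and to −0.10 for Hoxd9 without sham replicate 1. FLASH against CONV changed sign with the library left out in 3 HoxB genes, over −0.35 to 0.23 for Hoxb4, −0.33 to 0.39 for Hoxb7 and −0.65 to 0.59 for Hoxb8 with 10 libraries and over −0.62 to 0.29, −0.56 to 0.42 and −0.92 to 0.29 with 8. Without FLASH replicate 2, the 8 libraries gave 0.041 for Hoxb4 and 0.060 for Hoxb7. The cause was not tested. With the replicate number as a block, 0 members passed and the medians were −0.49, −0.74 and 0.22 in the 3 comparisons. Deviations of libraries with the same number correlated at −0.757 to 0.261 over 9 pairs. FLASH replicate 3 and CONV replicate 2, the lymphocyte-rich libraries, correlated at 0.898 and weigh on these deviations. The check therefore cannot decide whether libraries of the same number belong together. The labels give no pairing, and none was used.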

Other observations

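The values here were chosen after they were seen and carry no test of their own. The ratio of Hoxa9 to Hoxa10 counts was 0.703, 0.541 and 0.746 in sham, 0.568, 0.634 and 0.798 in FLASH replicates 1, 2 and 4, and 1.28 and 1.20 in CONV replicates 1 and 3, with 0.941 and 0.862 in the lymphocyte-rich pair. Hoxa9 and Hoxa10 are neighbours in the cluster, and Hoxa9 stood at 31.3 and 20.7 CPM in those CONV libraries against 16.4 to 24.5 CPM in sham, while Hoxa10 stood below sham in both. The ratio of Hoxc8 to Hoxc10 counts was 4.49 to 5.63 in sham and 4.34 to 5.65 in FLASH, the pair included, and 3.69, 2.97 and 3.00 in CONV replicates 1 to 3.

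Shox2, a homeobox gene of the proximal limb, stood at 36.8, 45.5 and 40.5 CPM in sham, 8.12, 24.9, 7.91 and 17.5 CPM in FLASH and 22.4, 5.03 and 24.2 CPM in CONV, so that every irradiated library lay below every sham library. Its log2 fold change in edgeR with 10 libraries was −1.49 ± 0.56 for FLASH and −1.25 ± 0.61 for CONV (adjusted p = 0.998 and 0.607), and with 8 libraries −1.29 ± 0.35 and −0.83 ± 0.39 (adjusted p = 1.00 and 0.416). With 10 libraries, FLASH lay below sham without overlap in 2.45% of all genes and CONV in 9.11%. En1, another of the 24 positional factors, had the same separation, at 4.19 to 5.76 CPM in sham and 1.48 to 2.84 CPM in the irradiated libraries. Mira, a non-coding RNA of the HoxA cluster, stood at 5.89 to 7.73 CPM in sham and at 1.62 and 1.21 CPM in the lymphocyte-rich pair, and at 4.21 to 7.87 CPM in the other irradiated libraries.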
